A study of Mus musculus with 6 samples.

Results

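The genes of the proteasome were examined in renal cortex, taking every non-control array probe whose gene name in the files was a Psma, Psmb, Psmc, Psmd, Psme, Psmf or Psmg symbol followed by a number. This rule found 92 probes for 48 of the 37074 gene names on the array. The samples were 6 renal cortices from male mice of 16 weeks, 3 labelled db/m and 3 labelled db/db, each hybridised to a one-colour Agilent array. The db/db mouse carries a defective leptin receptor on both chromosomes and becomes obese and diabetic, whereas the db/m mouse keeps a normal copy and is lean. The labels give no treatment per sample, and the design text and the paper describe the comparison as db/db mice on the C57BLKS/J background with or without 8 weeks of Huangqi decoction (HQD), a herbal formula, at a dose that the sources do not give for the arrays. The conditions were kept as labelled, and differences are given on the log2 scale as the mean of labelled db/m less that of labelled db/db, so that a negative value means lower in labelled db/m.

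The proteasome is the barrel-shaped protease that degrades ubiquitin-tagged proteins in the cytosol and nucleus. Its 20S core stacks outer rings of alpha subunits (Psma genes), which gate entry, on inner rings of beta subunits (Psmb genes), of which Psmb5, Psmb6 and Psmb7 carry the cutting sites. The 19S cap adds a ring of ATPases (Psmc genes) that unfold substrates and non-ATPase subunits (most Psmd genes) that bind and remove ubiquitin. After interferon, cells replace the cutting subunits with Psmb8, Psmb9 and Psmb10 to form the immunoproteasome, which favours peptides for MHC class I, and add the PA28 activator made of Psme1 and Psme2. In the kidney, the immunoproteasome is known mainly from inflammation and from resident immune cells, while the constitutive form is abundant in tubule cells.

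The array measured each subunit that is swapped and its replacement with probes of different sequence, and the pairs below are shown because they show how far the constitutive and immune forms differ at the sites measured. In each pair the capitals mark the bases that are identical in the best ungapped overlap. The probes of Psmb5 (chr14:55233161-55233220 on the mm9 build, minus strand) and Psmb8 (chr17:34337771-34337830, plus strand) shared 31 of 50 overlapping bases, or 62.0%.
Psmb5: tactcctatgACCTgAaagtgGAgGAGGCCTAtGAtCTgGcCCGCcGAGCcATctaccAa
Psmb8: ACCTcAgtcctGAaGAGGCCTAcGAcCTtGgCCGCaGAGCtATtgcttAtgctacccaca
The more upstream probe of Psmb6 (chr11:70341014-70341073, plus strand) and the probe of Psmb9 (chr17:34319174-34319233, minus strand) shared 27 of 48 bases, or 56.2%, while the level of Psmb6 below comes from its brighter downstream probe.
Psmb6: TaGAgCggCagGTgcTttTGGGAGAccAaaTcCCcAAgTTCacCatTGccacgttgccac
Psmb9: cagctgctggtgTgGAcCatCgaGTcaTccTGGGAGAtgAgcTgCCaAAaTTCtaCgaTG
No probe was named Psme2. Both probes named Psme2b also list RefSeq transcripts of Psme2, so that signal from Psme2 and from its copy Psme2b cannot be told apart, and the name Psme2b stands for both below. The upstream one is shown because it gave the larger difference of that pair (chr11:48759495-48759554, minus strand).
Psme2b: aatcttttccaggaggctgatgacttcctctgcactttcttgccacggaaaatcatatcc

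Of the 48 genes, 46 had a probe that the scanner software marked as well above background on each of the 3 arrays of a group, which was the condition for testing, and 82 of the 92 probes met it. The untested genes were Psma8, the alpha subunit of male germ cells, and Psmb11, the thymus-specific cutting subunit, whose probes were too dim. Both are known from other tissues. All 12 proximal tubule markers and all 6 podocyte markers of the lists passed the same condition. At the scaling used here kidney markers were also mostly lower in labelled db/m. These were 10 of 12 for the proximal tubule (median -0.19) and 6 of 6 for podocytes (-0.16). For the thick limb, distal tubule and collecting duct they were 6 of 8 (-0.21). The part of these markers in the results below was not tested. After quantile normalization 8 of 12, 6 of 6 and 5 of 8 were lower. The median intensity of the arrays lay between 75.9 and 113, between 51.6% and 59.1% of probes were well above background, and no spot was saturated. The 6 arrays lay on 3 slides, and only slide 1 held both groups, replicate 1 of labelled db/m and replicate 3 of labelled db/db. The arrays did not fully group by label. Replicate 2 of labelled db/m correlated more with replicate 3 of labelled db/db (0.992) than with the others of its label (0.982 and 0.988). That labelled db/db array in turn correlated less with the others of its own label (0.987 and 0.988). Replicates 2 and 3 of labelled db/m lay on slide 2, and replicates 1 and 2 of labelled db/db on slide 3. Each group had 1 array per mouse. The p-values measure the spread between 3 arrays a group, in which animal and slide cannot be told apart. In bulk cortex, fewer cells of a type and less RNA per cell cannot be told apart.

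Proteasome genes were mostly lower in labelled db/m, by small amounts that depended on how the arrays were scaled (43 of 46 genes at the 75th percentile of each array, 33 of 46 after quantile normalization). Of the 46 tested genes, each represented by its brightest probe, 43 had a negative difference and 3 a positive one (Psmc5, Psmd1 and Psmb10), with a median of -0.22 and a range from -0.83 for Psmd9 to 0.05 for Psmc5. At an unadjusted limma p under 0.05, 9 genes were lower and 0 higher, and genes past this unadjusted threshold are termed called below. The background for the lower calls was 9.45% of 20360 genes and for the higher calls 6.45%. None of the 46 passed a Benjamini-Hochberg adjusted p under 0.05, as did 0% of all genes, and none reached a 2-fold difference. The methods' t-test (the equal-variance test) called 15 members and 10.2% of all genes lower at an unadjusted p under 0.05 and likewise 0 members at the adjusted threshold. The groups did not overlap for 21 members, all lower in labelled db/m, against 15.4% of all genes. The count of 9 fell to 5 when replicate 1 or replicate 3 of labelled db/m was left out, to 4 when replicate 1 of labelled db/db was and to 5 when its replicate 2 was. The share of all genes called lower was also smaller in those fits, at 5.92%, 3.29%, 4.75% and 4.25% in the same order. With slide as a fixed block, where slide 1 alone gives the difference, 45 of 46 genes were lower, as were 3776 of the brightest 5090 genes, and the count was 2 (Psmd9 and Psme3), near the 5.98% of all genes called lower in that fit.

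**Figure D1:**
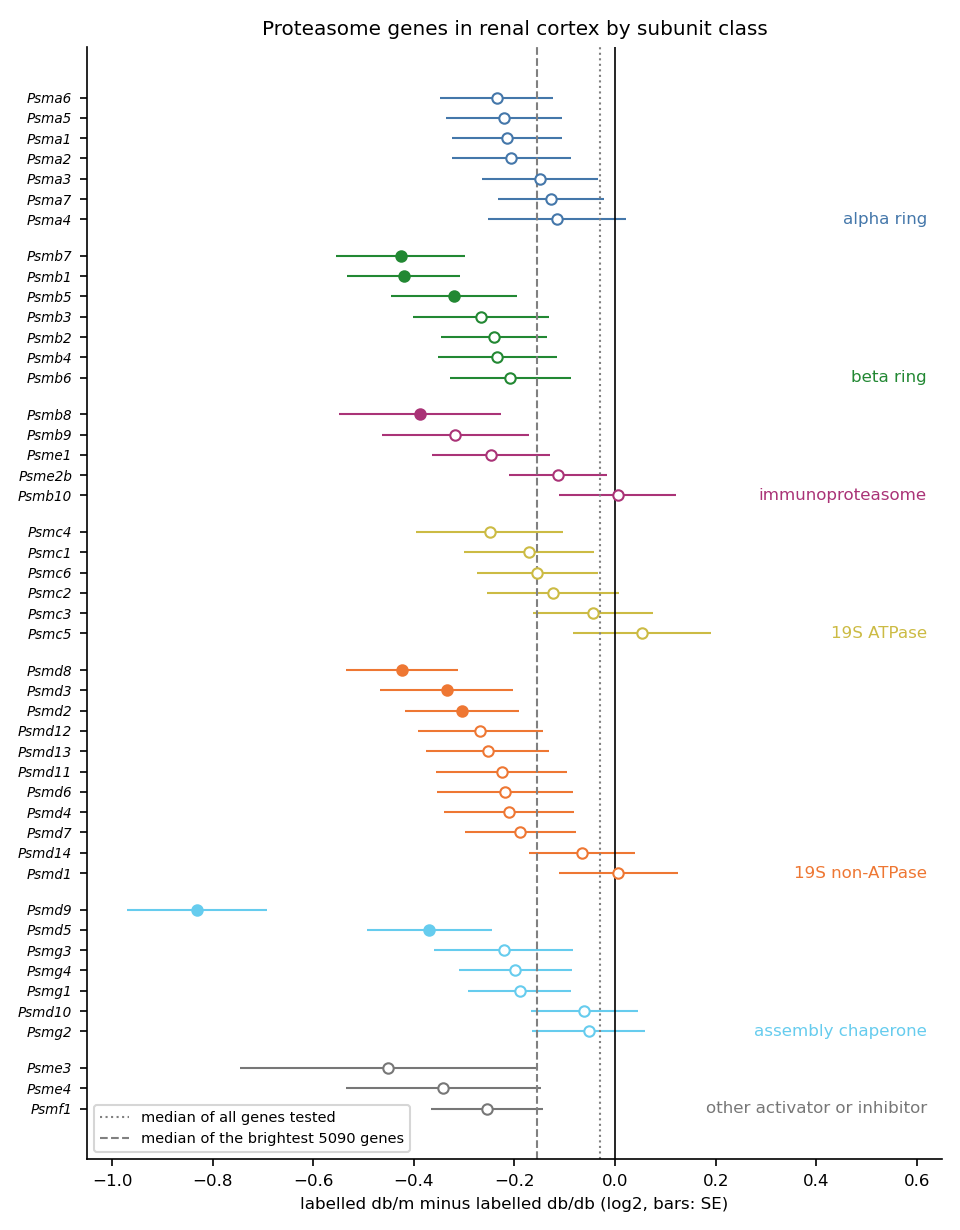
Difference of each tested proteasome gene (labelled db/m minus labelled db/db, log2; points are the brightest probe, bars the SE of the limma fit, n = 3 arrays per group), grouped by subunit class, with filled points for an unadjusted p under 0.05. Nearly all points lie left of 0, Psmd9 lies farthest left at -0.83, and the dotted and dashed lines give the medians of all genes (-0.03) and of the brightest 5090 genes (-0.16).

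A pair of properties of these arrays moved with that direction, and their part in it was not tested. Bright probes in general tended to be lower in labelled db/m. The median difference over all genes was -0.03, but it was 0.20 over the dimmest 5090 genes and -0.16 over the brightest 5090, of which 79.4% were lower, 14.5% were called lower and 1.65% higher. Proteasome genes are abundant, and 34 of the 46 were among those brightest 5090. These 34 had a median of -0.21, 31 were lower, 6 were called lower, and 15 had groups that did not overlap, against 26.4% of the brightest 5090 genes. The other property is the scaling between arrays. Each array was scaled here to its 75th percentile. After quantile normalization, in which the arrays share 1 distribution, 33 of 46 members were lower and the median was -0.08, with 6 called lower and 0 higher, against 7.72% of all genes and 5.44% of the brightest 5090 called lower. All of those 6 were among the 9 above, namely Psmb1, Psmb7, Psmb8, Psmd5, Psmd8 and Psmd9. Centring each array on its median moved all genes by -0.18, and 46 of 46 members were then lower with 19 called, against 17.5% of all genes and 28.4% of the brightest 5090 called lower. Relative to the median of the brightest 5090 genes, the members' median was -0.07 at the 75th percentile, -0.08 after quantile normalization and -0.07 after median centring.

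**Figure D2:**
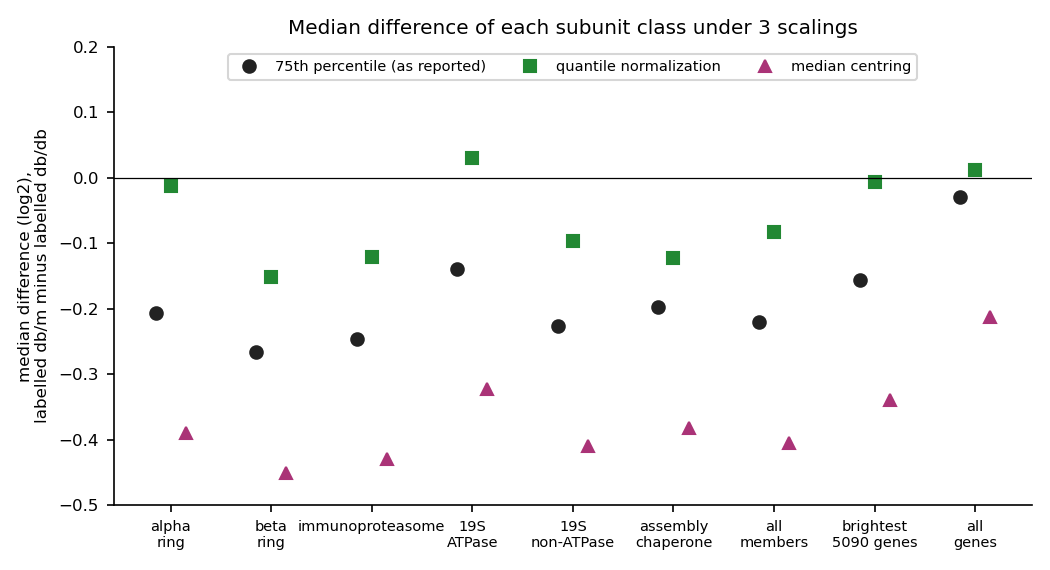
Median difference (log2, labelled db/m minus labelled db/db) of 6 subunit classes, of all 46 tested members, of the brightest 5090 genes and of all genes under 3 scalings between arrays. The order of the scalings is the same in every column, and after quantile normalization the 19S ATPases lie above 0 (0.03) and the alpha ring close to it (-0.01).

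In the 20S core, the median difference was -0.21 for the alpha ring and -0.27 for the beta ring. All 7 alpha genes had a negative difference at the 75th percentile, and 0 of 7 were called from their brightest probes. After quantile normalization 4 of 7 were negative. Psma6, an outer-ring subunit, had the lowest difference of the class (-0.24, SE 0.11) and Psma4 the highest (-0.12, SE 0.14). Psma6 was at 4.92, 5.03 and 4.96 in labelled db/m and at 5.16, 5.34 and 5.11 in labelled db/db, in log2 units relative to the 75th percentile of the array, the scale of all levels below. The 3 arrays labelled db/m were all below the 3 labelled db/db, although the limma p was not under 0.05 (adjusted p = 0.314). After quantile normalization the difference of Psma6 was -0.06 (SE 0.09). A dimmer probe of the same mRNA was called lower (-0.30, SE 0.12, adjusted p = 0.272). The Psma4 arrays overlapped at its brightest probe, and the difference turned to 0.09 after quantile normalization. Its place in the class depended on the probe, since 2 dimmer probes of its RefSeq mRNA were called lower with separate groups, at -0.29 (SE 0.11, adjusted p = 0.257) and -0.31 (SE 0.11, adjusted p = 0.258), while another gave -0.04 with overlap.

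All 7 beta ring genes had a negative difference at each of the 75th percentile, quantile and median scalings, although Psmb6 was near 0 after quantile normalization (-0.015, SE 0.093). At the 75th percentile 3 were called lower, Psmb1, Psmb5 and Psmb7. Psmb7, the subunit with trypsin-like activity, was at 3.36, 3.62 and 3.45 in labelled db/m and at 3.93, 4.03 and 3.75 in labelled db/db. No array labelled db/m reached the lowest array labelled db/db, and the level in labelled db/m was 0.744-fold that in labelled db/db (difference -0.43, SE 0.13, limma adjusted p = 0.241). Its probe crosses an exon junction, since the 60 bases lie over 20420 bases of the genome (chr2:38468966-38489385, minus strand).
Psmb7: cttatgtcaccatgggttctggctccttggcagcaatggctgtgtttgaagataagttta

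Psmb1, a structural beta subunit without a cutting site, was at 3.57, 3.66 and 3.55 in labelled db/m and at 4.02, 4.13 and 3.90 in labelled db/db. The groups were again apart, at 0.748-fold (-0.42, SE 0.11, adjusted p = 0.241). Psmb5, the chymotrypsin-like subunit that proteasome inhibitors bind, was at 4.27, 4.57 and 4.39 against 4.74, 4.83 and 4.62, or 0.801-fold (-0.32, SE 0.13, adjusted p = 0.271). The highest Psmb5 array in labelled db/m lay just below the lowest in labelled db/db. After quantile normalization Psmb5 was no longer called (-0.15, SE 0.096). Psmb6, the caspase-like subunit, was at 5.37, 5.58 and 5.47 against 5.69, 5.79 and 5.55, which overlap, and had the smallest difference of the class (-0.21, SE 0.12, adjusted p = 0.375).

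The immunoproteasome genes ranged from -0.39 for Psmb8 to 0.0053 for Psmb10. Of the 5, 4 had a negative difference and Psmb10 a positive one, with a median of -0.25, and 1 was called lower. After quantile normalization 3 of 5 were negative and 1 was called. Psmb8 was at -0.45, -0.61 and -0.33 in labelled db/m and at 0.11, -0.37 and 0.030 in labelled db/db. Labelled db/db replicate 2 lay within the labelled db/m arrays. The difference was -0.39 (SE 0.16), or 0.764-fold, with an adjusted p of 0.279, and the unadjusted call was kept in 1 of 6 fits that left out an array.

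Psmb9, which replaces Psmb6, was at 0.014, 0.077 and 0.41 in labelled db/m and at 0.56, 0.33 and 0.56 in labelled db/db. Labelled db/m replicate 3 was above labelled db/db replicate 2, and the difference of -0.32 (SE 0.15, 0.802-fold) was not called (adjusted p = 0.305). Psmb10, which replaces Psmb7, was at 3.07, 2.91 and 3.13 against 3.07, 2.93 and 3.09. Its groups were interleaved, with a difference of 0.0053 (SE 0.12, adjusted p = 0.983). It turned to -0.18 after median centring. Psme1, the alpha subunit of PA28, was at 3.84, 3.65 and 3.76 against 4.12, 3.96 and 3.89, without overlap (-0.25, SE 0.12, 0.843-fold, adjusted p = 0.314). After quantile normalization the difference of Psme1 was -0.12 (SE 0.13). With slide as a fixed block the difference of Psme1 was -0.056 (SE 0.20) and that of Psmb9 -0.54 (SE 0.26). At its brightest probe Psme2b was at 4.74, 4.77 and 4.80 against 4.87, 4.89 and 4.89, also without overlap (-0.11, SE 0.098, adjusted p = 0.531), and the difference was 0.07 after quantile normalization. The dimmer upstream probe shown above was at 2.75, 2.69 and 2.67 against 3.06, 3.01 and 2.90. Its groups lay farther apart and it was called lower (-0.29, SE 0.10, adjusted p = 0.252), so that the size and the call for Psme2b depended on the probe.

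**Figure D3:**
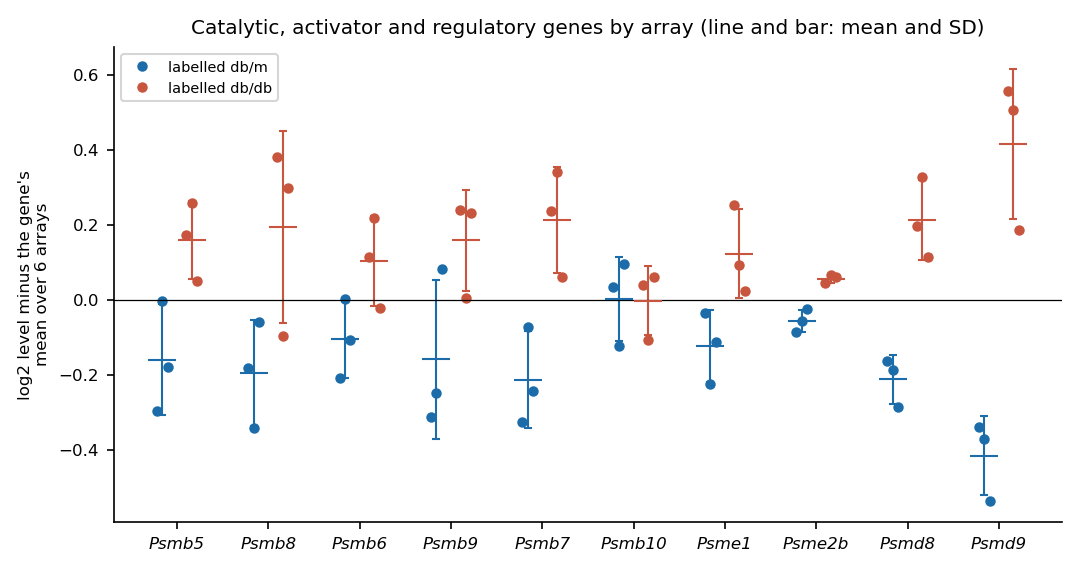
Level on each array of the constitutive and replacing catalytic subunits in adjacent columns, of the PA28 genes and of Psmd8 and Psmd9, as log2 level minus the gene's mean over 6 arrays (y axis), with mean and SD (n = 3) per group. Psmd9, Psmd8, Psmb7 and Psmb5 show separate groups, Psmb10 shows interleaved ones, and 1 array labelled db/db lies low for Psmb8.

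The balance of immune to constitutive subunit was read within each array as the log2 ratio of the replacing to the replaced gene, given as the deviation from the mean over 6 arrays because the probes differ. A single scaling factor for an array cancels in it, whereas quantile normalization does not. For Psmb8 over Psmb5 the deviations were 0.11, -0.34 and 0.12 in labelled db/m and 0.21, -0.35 and 0.25 in labelled db/db, so that replicate 2 was low in both groups. The shift of -0.07 was smaller than the SDs of 0.26 and 0.34, and it was -0.24 after quantile normalization. For Psmb9 over Psmb6 the shift was -0.11 with SDs of 0.22 and 0.24, and the arrays overlapped. It was -0.28 after quantile normalization and between -0.24 and -0.01 when each array was left out. For Psmb10 over Psmb7 the deviations were 0.36, -0.051 and 0.34 in labelled db/m and -0.20, -0.45 and -0.0015 in labelled db/db. The shift was 0.43 with SDs of 0.23 and 0.22, and labelled db/m replicate 2 lay below labelled db/db replicate 3. The shift of Psmb10 over Psmb7 was between 0.32 and 0.57 when each array was left out, while that of Psmb8 over Psmb5 lay between -0.26 and 0.08. No ratio had groups that stood apart.

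Immune cell markers, which bear on these genes because leukocytes express the immunoproteasome without stimulation, ran the other way. Of 21 markers with a probe, 14 were tested, 13 were higher in labelled db/m with a median of 0.44, and 6 were called higher (Adgre1, Cx3cr1, Itgam, Laptm5, Lyz2 and Ptprc). Their summed level was 6.09, 5.60 and 5.77 in labelled db/m and 5.18, 5.10 and 5.54 in labelled db/db, without overlap. Ptprc, the pan-leukocyte antigen CD45, differed by 0.54 (SE 0.16, adjusted p = 0.241) and Itgam, or CD11b, by 0.69 (SE 0.17, adjusted p = 0.241). After quantile normalization 13 were higher and 6 called, against 5.53% of all genes called higher, and after median centring 11 were higher and 3 called, against 3.3%. With normexp background correction 13 were higher and 6 called, against 5% of all genes, but the median was 0.20. Cd8a, Cd3g, Cd79a, Ms4a1, Klrb1c, Itgax and Clec9a were not tested, since their probes were too dim. The markers' part in the levels of the immunoproteasome genes was not tested.

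Genes of the interferon and MHC class I pathway, the usual company of the immunoproteasome, were mixed. All 15 were tested, 12 were negative with a median of -0.15, and 2 were called lower. After quantile normalization 9 of 15 were negative, with 3 called lower and 1 higher. The called genes at the 75th percentile were H2-D1, a class I heavy chain with close paralogs that its probe may share (-0.25, SE 0.10, adjusted p = 0.275), and Tapbpl, a peptide editor of class I molecules (-0.37, SE 0.11, adjusted p = 0.241). Tap1, the peptide transporter subunit whose gene lies beside Psmb9, had -0.40 (SE 0.20, adjusted p = 0.317) with overlapping groups. Irf1, an interferon-induced transcription factor, had -0.09 (SE 0.16) and was not called.

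In the 19S cap, 3 of 11 non-ATPase subunits and 0 of 6 ATPases were called. For the 6 ATPases the median was -0.14, 5 were negative, 0 were called and 0 had separate groups. Leaving out an array gave medians from -0.20 to -0.06. After quantile normalization 2 of 6 were negative and the median was 0.03. Psmc4 was lowest (-0.25, SE 0.15) and Psmc5 highest (0.05, SE 0.14), both with overlapping arrays. Psmc5 turned to -0.13 after median centring.

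Of the 11 non-ATPase subunits, 10 were negative, the median was -0.23, 3 were called lower and 6 had separate groups. Leaving out an array gave medians from -0.30 to -0.15. After quantile normalization 9 were negative and 1, Psmd8, was called. Psmd8, a lid subunit, was at 3.36, 3.34 and 3.24 in labelled db/m and at 3.72, 3.85 and 3.64 in labelled db/db. The groups did not overlap, at 0.745-fold (-0.42, SE 0.11, adjusted p = 0.241), and with slide as a fixed block the difference was -0.28 (SE 0.20) and not called. Psmd2, the base subunit that docks shuttle factors, was at 3.74, 4.0 and 3.82 against 4.17, 4.19 and 4.12 (-0.30, SE 0.11, 0.810-fold, adjusted p = 0.260). Psmd3, a scaffold of the lid, was at 5.58, 5.93 and 5.72 against 6.09, 6.18 and 5.97 (-0.33, SE 0.13, 0.793-fold, adjusted p = 0.271), with labelled db/m replicate 2 close to labelled db/db replicate 3. After quantile normalization the difference was -0.18 (SE 0.09) for Psmd2 and -0.14 (SE 0.09) for Psmd3. Psmd1, the other large base subunit, was at 4.37, 4.55 and 4.37 against 4.30, 4.46 and 4.52, with no separation (0.0065, SE 0.12).

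The largest difference of any member was in an assembly chaperone. Psmd9 (p27), which helps the ATPase ring to assemble and is not part of the finished particle, was at 1.5, 1.47 and 1.30 in labelled db/m and at 2.40, 2.34 and 2.03 in labelled db/db. The highest array labelled db/m was well below the lowest labelled db/db, at 0.562-fold (-0.83, SE 0.14, adjusted p = 0.241). Its unadjusted call was kept in 19 of 19 alternative fits, and the difference lay between -1.01 and -0.53. It rests on 1 probe (chr5:123691881-123691940, plus strand), which is shown for that reason.
Psmd9: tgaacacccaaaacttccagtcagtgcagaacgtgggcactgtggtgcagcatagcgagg

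Psmd5 (S5b), another chaperone of the ATPase ring, was at 1.90, 1.75 and 1.74 against 2.15, 2.32 and 2.02 (-0.37, SE 0.12, 0.774-fold, adjusted p = 0.245). Its groups did not overlap, but with slide as a fixed block the difference was -0.12 (SE 0.20) and not called. All 7 chaperones were negative, with a median of -0.20, and Psmg2, a chaperone of the alpha ring, had the smallest difference (-0.053, SE 0.11), which turned to 0.05 after quantile normalization. After that normalization 5 of 7 were negative and 2 were called. The remaining members are the alternative activators Psme3 (PA28 gamma) and Psme4 (PA200) and the inhibitor Psmf1 (PI31). Psme3 had -0.45 but varied widely, at 1.69, 2.66 and 2.07 against 2.22, 2.55 and 3.01 (SE 0.29, adjusted p = 0.419). Replicate 2 of labelled db/m was above 2 of the 3 arrays labelled db/db. With slide as a fixed block Psme3 was called lower, at -1.32 (SE 0.35), and leaving out an array gave -0.71 to -0.23. It was also called at -0.71 without replicate 2 of labelled db/m. Psmf1 was at 1.26, 1.23 and 1.20 against 1.40, 1.63 and 1.44, with separate groups (-0.25, SE 0.11, adjusted p = 0.291). A dimmer upstream probe of Psmf1 was called lower (-0.48, SE 0.11, adjusted p = 0.241).

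Beyond the subunits, 13 of 14 tested proteasome-associated genes were negative with a median of -0.09, and 1 was called lower, Adrm1, the ubiquitin receptor of the cap (-0.30, SE 0.12, adjusted p = 0.274). After quantile normalization 6 of 14 were negative and 0 were called. Of 6 regulators of proteasome genes, 3 were negative and 1 was called lower. That gene was Keap1, the adaptor that sends Nrf2 to degradation (-0.34, SE 0.12, adjusted p = 0.252). The transcription factors that drive subunit genes, Nfe2l1 (0.17, SE 0.12) and Nfe2l2 (0.16, SE 0.16), were not called. Among the genes for ubiquitin and its E1 enzymes, Uba7, the E1 of the interferon-induced modifier ISG15, was called higher (0.40, SE 0.16, adjusted p = 0.271).

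Which probe stood for a gene mattered. Of the genes not called from their brightest probe, 8 were called lower from another probe of a RefSeq mRNA (Psma4, Psma6, Psmb2, Psmb4, Psmd6, Psmd13, Psme2b and Psmf1). Of the 82 tested probes, 70 belong to a RefSeq mRNA, and 67 of these were lower in labelled db/m, with a median of -0.24 and 20 called lower, against 13.2% of all probes of RefSeq mRNAs. The other 12, which belong to Ensembl transcripts, predicted transcripts or cDNA clones under the same gene names, had a median of 0.10, and 8 were higher with 1 called, against 11.2% of all such probes called higher. Over all probes the medians were -0.08 with a RefSeq mRNA and 0.09 without.

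**Figure D4:**
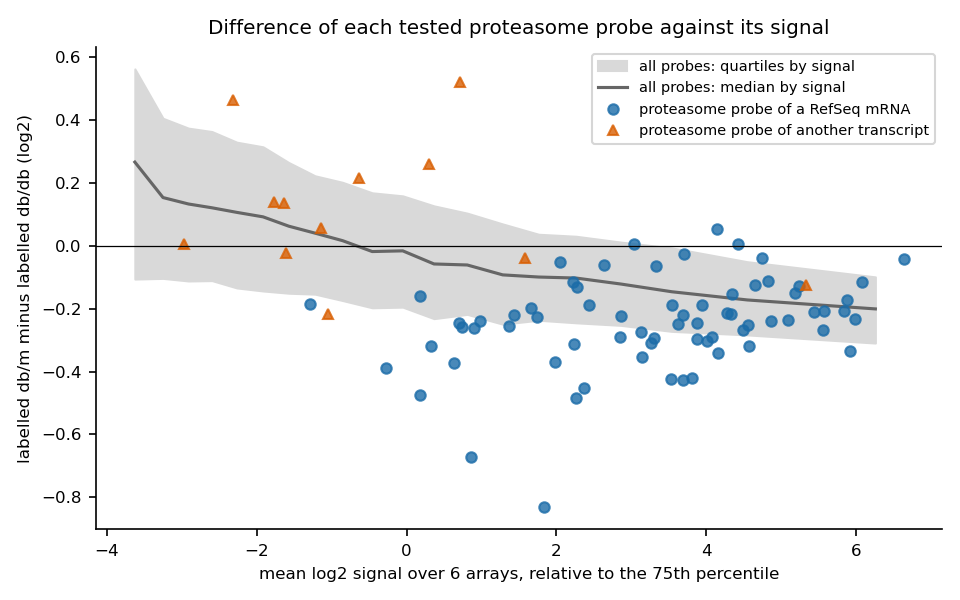
Difference (log2, labelled db/m minus labelled db/db) of the 82 tested proteasome probes against mean log2 signal over the 6 arrays, relative to the 75th percentile. Circles are the 70 probes of a RefSeq mRNA and triangles the other 12, and the grey line and band are the median and quartiles of all tested probes by signal, which fall from above 0 to below 0 as signal rises.

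In 2 genes the probes disagreed in sign with a call in at least 1 of them. For Psmd1, 3 RefSeq probes had differences from -0.12 to 0.0065, while a probe of another transcript was at -2.06, -2.13 and -2.04 in labelled db/m and at -2.46, -2.64 and -2.53 in labelled db/db, higher by 0.46 without overlap. For Psmb2, a structural beta subunit, the RefSeq probes gave -0.24 (overlap-free, not called) and -0.26 (called), and a clone probe gave 0.52 with overlapping groups, so that the mean of its probes was 0.0074.

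For 18 genes, 2 tested probes of 1 RefSeq mRNA lay at different positions, and their comparison was chosen after the data had been seen. The upstream probe had the more negative difference in 14 of 18 (77.8%), by a median of -0.11. Over all 4102 transcripts with such probes it was so in 63.4%, by a median of -0.07. The median over the 18 of upstream minus downstream signal, as deviation from the mean over 6 arrays, was -0.0087, -0.062 and -0.070 in labelled db/m and 0.098, 0.039 and 0.029 in labelled db/db. The groups did not overlap in this measure for the members, nor did they over all transcripts, and what sets it was not tested.

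Psmd3 had the widest gap of this kind. Its upstream probe, at base 904 of the mRNA, was at 0.49, 0.62 and 0.46 in labelled db/m and at 1.22, 1.20 and 1.18 in labelled db/db, a difference of -0.67, against -0.33 for the probe at base 2037. The upstream probe is shown because the gene's size of difference turns on it (chr11:98551831-98551890, plus strand).
Psmd3: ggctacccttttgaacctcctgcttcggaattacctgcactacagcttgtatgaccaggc
Psmb4, Psmd13, Psme2b and Psmf1 also had ratios of upstream to downstream signal that did not overlap between groups, each lower in labelled db/m. Together with Psmd3 these were 5 of 18 genes, against 21.5% of the 4102 transcripts. With the most upstream RefSeq probe standing for each gene, 16 members were called lower in place of 9, while the share of all genes called lower was 12.1% in place of 9.45%.

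**Figure D5:**
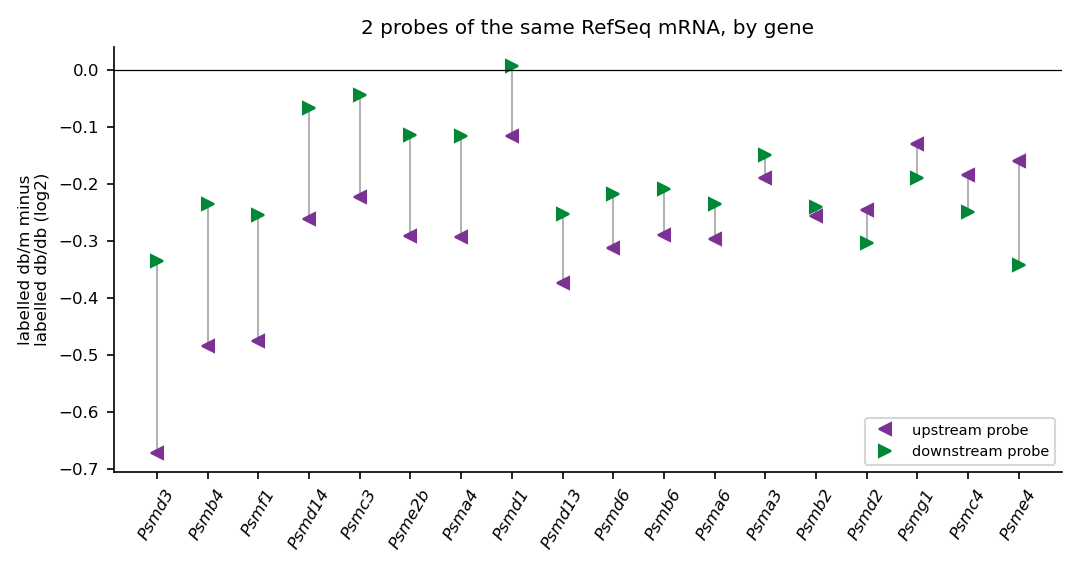
Difference (log2, labelled db/m minus labelled db/db) at an upstream and a downstream probe of the same RefSeq mRNA for 18 proteasome genes, ordered by the gap between them. In 14 genes the upstream probe lies lower, and in Psmd2, Psmg1, Psmc4 and Psme4 it lies higher.

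Promoters were read for 3 short motifs, since subunit genes are known to be driven together. Of 49 member names searched, Psme2 included, 41 had an entry among the RefSeq promoters (GRCm38.p6, 250 bases before to 50 after the start, 44 promoters in all). On either strand, the CCAAT box was in 14 of 44 (31.8%), against 37.4% of 32851 promoters of the same length. TGACNNNGC, the core of the antioxidant response element that Nfe2l1 and Nfe2l2 bind, was in 6 (13.6%) against 12.4%. GAAANNGAA, part of the interferon-stimulated response element, was in 7 (15.9%) against 8.56%, and Psme1 was the only immunoproteasome gene among them. The 100 bases before the start are shown for Psmb5, Psmb6 and Psmd9, the beta ring and chaperone genes among the 6 with the TGACNNNGC letters, which stand in capitals (Psmb5 chr14:54617996-54618095, minus strand, Psmb6 chr11:70525257-70525356, plus strand, and Psmd9 chr5:123228090-123228189, plus strand, all GRCm38.p6).
Psmb5: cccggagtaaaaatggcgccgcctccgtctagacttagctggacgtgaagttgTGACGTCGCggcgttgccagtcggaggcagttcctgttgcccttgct
Psmb6: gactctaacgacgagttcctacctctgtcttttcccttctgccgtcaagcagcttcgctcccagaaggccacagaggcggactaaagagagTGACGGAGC
Psmd9: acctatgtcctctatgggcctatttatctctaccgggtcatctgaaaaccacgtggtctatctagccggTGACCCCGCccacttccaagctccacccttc
Of the 6 genes with these letters, Psmb5 and Psmd9 were called lower, and Psmb6, Psmc6, Psmd12 and Psme4 were not. Of the 9 called genes, Psmb8, Psmd2, Psmd5 and Psmd8 had no match in their window, and Psmb1, Psmb7 and Psmd3 had no promoter entry.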

How the data were processed

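Renal cortex RNA was measured on 6 one-colour arrays, 3 per labelled group. The authors deposited, for every array, the spot intensity as the scanner software gave it, which Agilent Feature Extraction 10.7.1.1 had background-subtracted without scaling arrays to each other (version per the submitters' processing notes), and a matrix of log2 values that tracked the scanner values of each array (column medians 6.11), whose scaling is not given in the sources used here. The intensity of labelled db/m replicate 1 was deposited with fewer digits, and 71 of its gene names differed, so that names came from another array. Control spots and outlier spots were left out, spots of a probe were averaged, and log2 intensity was set relative to the 75th percentile of its array. Of 56605 probes, 29889 passed the detection condition (marked well above background in all 3 samples of a group) and were tested with limma 3.58.1 (lmFit and eBayes, R 4.3.3), with Benjamini-Hochberg adjustment over all of them. The brightest tested probe stood for a gene. A fold is labelled db/m over labelled db/db. Fits were tested on simulated data. Arrays give no counting error, and their number limits precision.

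Genes were named by a rule: the 5 immunoproteasome genes, Psmb5, Psmb6 and Psmb7, members with an unadjusted p under 0.05, the highest and lowest difference of each class, and members with tested probes of opposite sign of which at least 1 had an unadjusted p under 0.05. Some genes of the accompanying lists are not reported here. The members and lists were chosen with earlier results of these data known. RefSeq symbols matched 73 of 92 member probes by accession, all with the name in the files. An exact permutation test of 3 against 3 arrays cannot go below 0.1. The reported fit did not pair arrays by replicate number. Deviations from the group means correlated between same-numbered arrays at 0.35, 0.15 and 0.046, and 4 of 6 arrays were closest to their own number. Alternatives in scaling and filtering were quantile normalization, median centring, normexp with an offset of 50, the deposited matrix and other filters on dim probes. Alternatives in the fit were an equal-variance t-test, trend and robust variance, slide as a fixed or random block and a replicate block. The mean of a gene's probes and leaving out each array were also tried. Using the most upstream probe was added after seeing the data.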

Additional observations from a re-analysis of the deposited data

How the results depend on the processing

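Both calls and directions depended on the settings, and the causes were not tested. The 9 members lower at an unadjusted p became 19 with median centring, 5 with no filter on dim probes and 15 with the equal-variance t-test. They became 15 with trend and robust variance, 2 with slide as a fixed block and 16 with the most upstream probe (added after seeing the data). Leaving out an array gave 4 to 12. The share of all genes called lower moved as well, from 9.45% to 17.5%, 3.78%, 10.2%, 11.8%, 5.98% and 12.1% in the same order of settings. With the replicate block, 11 were lower, beside 12.6% of all genes, where 4 of 6 arrays were closest to their own number. No member was higher at that threshold, and none passed the adjusted threshold, in any of the 19 alternatives. Over all genes, 215 passed the adjusted threshold without replicate 2 of labelled db/m and 103 without replicate 3 of labelled db/db. In the other alternatives at most 9 did, and 0 in the reported fit. Psmd9 was called lower in all 19, Psmb1, Psmb7 and Psmd8 in 18, Psmd5 in 14, Psmb5, Psmb8 and Psmd3 in 11 and Psmd2 in 9. The fold and p screen was passed by 1 member under median centring (Psmd9) and 1 under the slide block (Psme3), and by 0 in the reported fit. Under median centring the class medians were -0.39 (alpha ring), -0.45 (beta ring), -0.43 (immunoproteasome), -0.32 (19S ATPase), -0.41 (19S non-ATPase) and -0.38 (assembly chaperone). Under quantile normalization they were -0.013 (alpha ring), -0.15 (beta ring), -0.12 (immunoproteasome), 0.031 (19S ATPase), -0.096 (19S non-ATPase) and -0.12 (assembly chaperone). In the deposited matrix they were -0.012, -0.15, -0.12, 0.031, -0.095 and -0.12 in the same order. The share of lower among all called genes was 59.4% in the reported fit and 84.2% under median centring, but 47.2% with no filter on dim probes, 45.4% without replicate 1 and 49.3% without replicate 3 of labelled db/m, and 49.9% without replicate 3 of labelled db/db. The shift of Psmb9 over Psmb6 was -0.36 with slide as a fixed block. Of the 46 members, 10 turned sign under quantile normalization and 10 in the deposited matrix. Among the genes named by the rule, signs turned for Psma4 (0.089 and 0.088), Psme2b (0.066 and 0.066) and Psmg2 (0.045 and 0.042) under quantile normalization and in the deposited matrix, for Psmg2 (0.047) and Psmb2 (0.0074) with the mean of a gene's probes, for Psmb10 (-0.18), Psmc5 (-0.13) and Psmd1 (-0.18) under median centring, for Psmb10 (-0.025), Psmc5 (-0.16) and Psmd1 (-0.15) with slide as a fixed block, and for Psmd1 (-0.12) with the most upstream probe. Leaving out an array gave -0.047 to 0.068 for Psmb10, -0.054 to 0.16 for Psmc5 and -0.058 to 0.053 for Psmd1. With 3 arrays per group, the SE of a member's difference was 0.098 to 0.29, beside a median difference of -0.22.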
